A study of Homo sapiens with 6 samples.

Results

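AKT1, DDR1 and HIPK1 are 3 of the 348 genes that a pooled guide library targeted in HS-SY-II synovial sarcoma cells. Every guide whose gene entry in the count table is AKT1, DDR1 or HIPK1 was taken, which gave 30 of the 3470 guides against genes, 10 for each kinase. The guides of each kinase were split by their number in the library, up to 1495 (the first set, 5 guides per kinase) or from 1496 on (the second set, 5 guides per kinase). AKT1 has guides 41 to 45 and 2291 to 2295, DDR1 has guides 361 to 365 and 1851 to 1855, and HIPK1 has guides 536 to 540 and 2706 to 2710. All 30 passed the filter on low counts (a mean of at least 30 reads over the day 0 libraries). They share 3 targets, so the guides of a kinase are not independent of each other.

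HS-SY-II is an established human synovial sarcoma cell line that carries an SS18::SSX fusion. In all groups the cells expressed Cas9, had received the guide library by lentivirus and had been selected with puromycin. The libraries came from cells kept in culture for 14 days (day 14, n = 2), from xenografts grown under the skin of athymic nude mice until they measured 1 cm3 (in vivo, n = 2; 4 mice per replicate by the methods), and from cells frozen after selection (day 0, n = 2). The comparisons ask which of the targeted genes the cells need for growth in culture and in a tumour. The labels number the tumours replicates 1 and 2 whereas the study's appendix names both as mice of replicate 1, so whether they came from 1 transduction is not settled. The 2 libraries of a group therefore measure the spread between these samples, part of which may be technical. The sources used here do not say whether the Cas9 line is 1 clone, and counts of guides carry no expression markers against which the cell type could be checked.

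In a pooled knockout screen every cell carries 1 guide as a rule, and the guides of cells whose cut gene was needed for growth become rarer in the mixture. DDR1 is a receptor tyrosine kinase of the cell surface whose ligand is collagen. AKT1 is a serine/threonine kinase that is recruited to the membrane by phosphoinositides made by PI3 kinase and that promotes growth and survival. HIPK1 is a mostly nuclear kinase of the homeodomain-interacting family, whose known partners include p53, DAXX and transcription factors.

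In hg38 (GENCODE release 44), DDR1 lies on the plus strand at chr6:30876421-30900156 and its main transcript has 18 exons and 913 codons. AKT1 lies on the minus strand at chr14:104769349-104795751, with 15 exons and 480 codons, and HIPK1 on the plus strand at chr1:113929324-113977869, with 16 exons and 1210 codons. The coding sequences hold 637 (DDR1), 263 (AKT1) and 464 (HIPK1) possible Cas9 sites next to an NGG motif, so 10 guides sample a small part of each gene. Guide sequences were not used here, and where in each gene the guides cut is not known from these values. The stretch that all 3 targets share by function is the start of the activation segment of the kinase domain, where the aspartate-phenylalanine-glycine motif binds the magnesium ions of ATP. It is shown for each gene on its coding strand, 5′ to 3′, with the codons of that motif in capitals, for exon 16 of DDR1 (chr6:30898179-30898241), exon 11 of AKT1 (chr14:104773299-104773361, minus strand) and exon 2 of HIPK1 (chr1:113941365-113941427).
DDR1: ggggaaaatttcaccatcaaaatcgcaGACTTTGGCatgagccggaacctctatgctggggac
AKT1: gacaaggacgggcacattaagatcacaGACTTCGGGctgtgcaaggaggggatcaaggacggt
HIPK1: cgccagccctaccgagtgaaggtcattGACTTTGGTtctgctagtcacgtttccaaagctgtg

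Depth was 3394352 to 21854232 reads per library, with day 0 replicate 1 the deepest. Counts are given as scaled CPM, the count set against the size of its library after TMM scaling. Where limma is not named, log2 fold changes are from edgeR. Their standard errors (SE) were derived from its test, as the absolute log2 fold change divided by the square root of the F statistic. On this scale the 183 non-targeting guides were not at 0. Their median log2 fold change was 0.50 at day 14 and 0.57 in vivo (5th to 95th percentile -0.15 to 1.18 and -0.51 to 1.96). Over all genes, first-set guides lay close to them, with medians of 0.41 and 0.52, and second-set guides lay lower, with medians of -0.57 and -0.61. For PRPF19, a splicing factor, and RPL13, a ribosomal protein, both needed by dividing cells, the second-set medians were -6.46 and -5.22 at day 14 and -5.83 and -6.21 in vivo. Each kinase is therefore described set by set and beside the non-targeting guides.

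In the main fits HIPK1 was the kinase whose second-set mean was called lower in both arms by limma. AKT1 had second-set values below day 0 in the tumours that did not pass the test. The fitted second-set change of DDR1 was small, but in vivo its mean lay above both day 0 libraries in tumour 1 and below both in tumour 2. For the mean log2 CPM of the 5 second-set guides of HIPK1, limma gave -1.22 ± 0.37 at day 14 and -1.21 ± 0.37 in vivo (SE, n = 2 libraries a group, Benjamini-Hochberg adjusted p = 0.0495 and 0.0305). The same measure was -0.34 ± 0.45 and -1.22 ± 0.45 for AKT1 (adjusted p = 0.610 and 0.0579) and -0.03 ± 0.47 and -0.02 ± 0.47 for DDR1 (adjusted p = 0.978 and 0.971). Among the 348 genes tested this way, 22.7% were called lower at day 14 and 43.1% in vivo, so 1 call among 3 kinases in each arm lies near the background of the library. Of the first-set guides, the sums of DDR1 and AKT1 were called higher in vivo by edgeR, as were those of 44.8% of the 299 genes with first-set guides. Neither was called when scaled to the non-targeting guides.

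**Figure D1:**
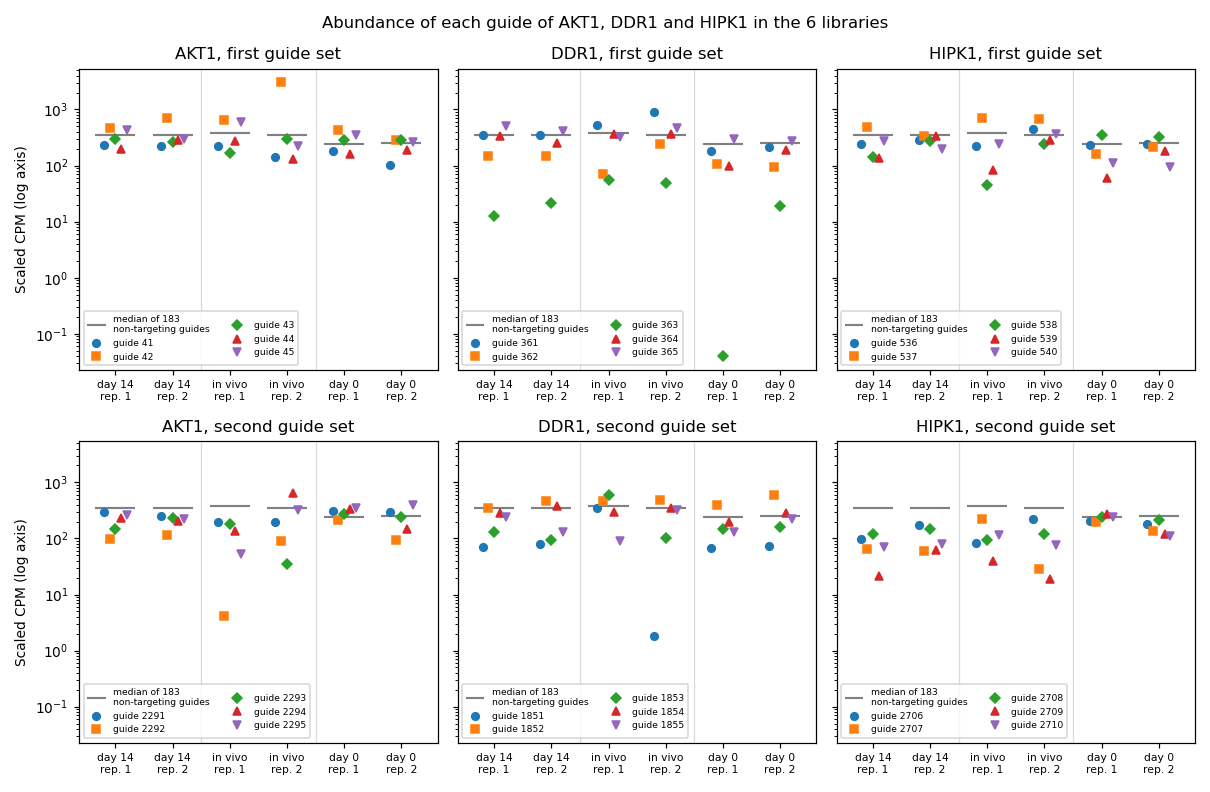
Scaled CPM (log axis) of each guide of the 3 kinases in the day 14, in vivo and day 0 libraries, with first-set guides above and second-set guides below; grey bars mark the median of the 183 non-targeting guides in each library. The 5 second-set HIPK1 guides lay below their day 0 values in both day 14 libraries, and guide 42 of AKT1 reached 3055 scaled CPM in 1 tumour.

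Single guides were first tested one by one in a fit of all 3607 kept guides. At day 14 against day 0, edgeR's quasi-likelihood test (p-values adjusted after Benjamini-Hochberg, at 0.05) called 0 of the 30 guides lower and 0 higher, as for the library as a whole (0% lower and 0% higher). Before adjustment, p was under 0.05 for 1 guide lower (guide 2709 of HIPK1) and 2 higher (guides 537 and 540 of HIPK1), beside 7.18% and 1.22% of all guides. DESeq2 called 0 of the 30, beside 3.47% of all guides lower and 0.0832% higher, and limma on the authors' normalized counts called 0, beside 1.33% and 0%. In vivo against day 0, edgeR called 0 guides of either direction, beside 1.14% and 0.554% of all guides (lower and higher). Without adjustment it gave 1 guide lower (2709) and 5 higher (42, 361, 364, 537 and 540) at a p under 0.05, beside 12.8% and 12.9%. DESeq2 called guide 2709 of HIPK1 lower and guides 42 of AKT1, 361 of DDR1, and 537 and 540 of HIPK1 higher in vivo, where it called 10.3% of all guides lower and 10.9% higher, and limma called 0, beside 7.21% and 0.36%. With in vivo replicate 1 left out, edgeR called 4 of the 30 guides lower and 5 higher, beside 16.5% and 15.6% of all guides, and without in vivo replicate 2 it called 3 lower and 5 higher, beside 17.3% and 14.6%. Guide 1851 of DDR1 was among the lower guides in one case and among the higher in the other.

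**Figure D2:**
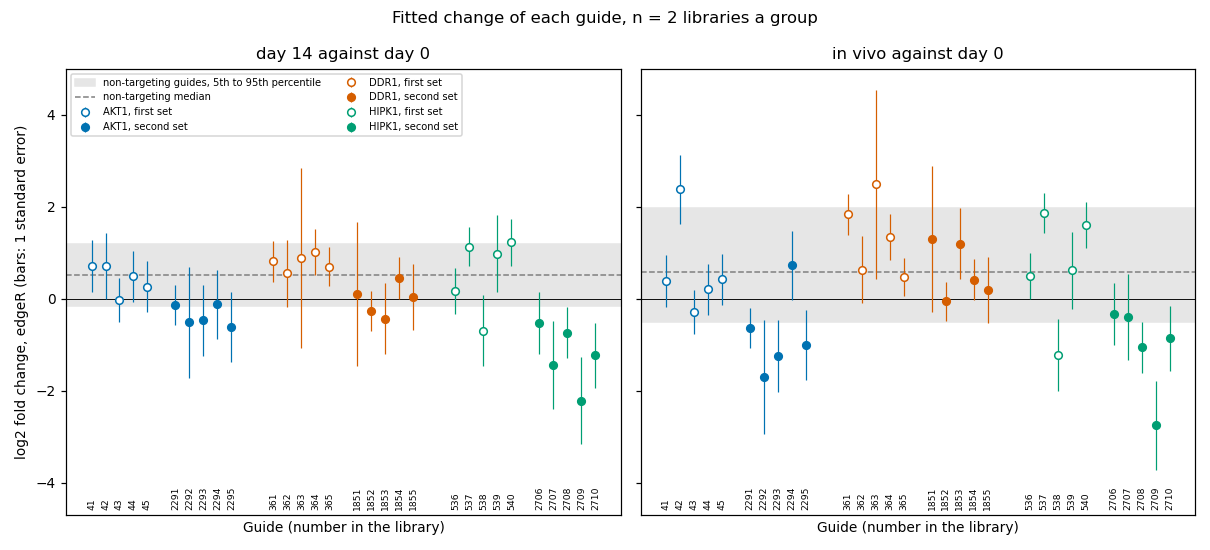
Log2 fold change of each of the 30 guides (points, with bars of 1 SE, edgeR, n = 2 libraries a group) at day 14 and in vivo against day 0, with open points for the first set and filled points for the second; the grey band is the 5th to 95th percentile of the 183 non-targeting guides. The second-set guides of HIPK1 lay below the band at day 14, and guide 2709 was the lowest of the 30 in both panels.

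DDR1, the collagen receptor, had no set of guides called lower in either arm in the fits of all 6 libraries, and the sum of its first-set guides was called higher in the tumours than at day 0. Summed over the 5 first-set guides, scaled CPM was 1341 and 1192 in the day 14 cultures, 1328 and 2017 in the tumours, and 689 and 789 at day 0. No culture or tumour overlapped day 0, and edgeR on the summed counts gave a log2 fold change of 1.18 ± 0.28 in vivo (SE, n = 2 a group, adjusted p = 0.0103) and 0.78 ± 0.28 at day 14 (adjusted p = 0.361). Of the 299 genes with first-set guides, 44.8% were called higher in vivo in this way and 0% at day 14. The day 14 value was called by DESeq2 (0.81, adjusted p = 0.0162) and in a fit of the 2 groups alone (adjusted p = 0.00323). Of the 3607 guides tested singly, these settings called 3 and 29 higher at day 14, against 0 in the main fit. The share of first-set sums called in these settings is not given here, and counts of single guides do not stand in for it. With in vivo replicate 1 or 2 left out the day 14 value was 0.78 in each case. Scaled to the non-targeting guides the in vivo value was 0.33 (adjusted p = 0.531), and without either day 0 library it was no longer called (1.18 and 1.24, adjusted p = 0.0965 and 0.100). 

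Guide 361 of DDR1 had 352 and 350.1 scaled CPM in the day 14 cultures, 519 and 903 in the tumours, and 182 and 218 at day 0. It was higher in both cultures and both tumours than in either day 0 library, with a log2 fold change of 0.81 ± 0.44 at day 14 and 1.83 ± 0.45 in vivo (edgeR, adjusted p = 0.657 and 0.0719). Guide 364 had 331 and 249 scaled CPM in the day 14 cultures, 365 and 361 in the tumours, and 100.1 and 188 at day 0. Guide 365 had 499.9 and 420.4 scaled CPM in the day 14 cultures, 320.2 and 461 in the tumours, and 298 and 269.9 at day 0. Both also stood above day 0 in all 4 later libraries, by 1.33 ± 0.50 and 0.46 ± 0.41 in vivo. Of all first-set guides, 46.8% stood above both day 0 libraries in both cultures and 37% in both tumours, as did 55.7% and 42.6% of the non-targeting guides, so such a position is common on this scale. Guide 362 had 145 and 151 scaled CPM in the day 14 cultures, 69.6 and 243 in the tumours, and 109 and 93.7 at day 0, above day 0 in the cultures and on both sides of it in the tumours. Guide 363 was hardly present at day 0, with 1 and 96 reads there, against 48 and 97 reads in the cultures and 196 and 322 reads in the tumours. Its fitted values of 0.88 ± 1.96 and 2.48 ± 2.04 rest on those 2 day 0 libraries and have the widest errors of the 30 guides.

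The mean log2 CPM of the first-set DDR1 guides gives each guide the same weight, and it was 1.50 ± 0.36 in vivo (limma, adjusted p = 0.0387; 5.02% of 299 genes called higher) and 1.01 ± 0.36 at day 14 (adjusted p = 0.250; 0% called higher). With a day 0 mean of at least 100 reads, which leaves out guide 363, the in vivo value was 0.99 and was not called (adjusted p = 0.0624). The call was also lost without day 0 replicate 1 or 2 (1.09 and 1.10, adjusted p = 0.240 and 0.154), without either day 14 library (adjusted p = 0.0967 and 0.0967) and on the non-targeting scale (0.70, adjusted p = 0.191). By the median of their guides, first-set DDR1 guides ranked 293 of 299 genes from the lowest at day 14 (0.81) and 281 in vivo (1.33).

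The second-set guides of DDR1 had medians of 0.03 at day 14 and 0.41 in vivo, ranks 304 and 307 of 348 genes from the lowest. Their mean log2 CPM was 7.54 and 7.48 in the day 14 cultures, 8.25 and 6.78 in the tumours, and 7.32 and 7.75 at day 0. The cultures lay between the day 0 libraries, whereas tumour 1 lay above both and tumour 2 below both. Guide 1852, the most abundant of the 5 guides, had 351 and 472 scaled CPM in the day 14 cultures, 464 and 487 in the tumours, and 396 and 597 at day 0. Guide 1854 had 285 and 374 scaled CPM in the day 14 cultures, 293 and 349 in the tumours, and 196 and 287 at day 0. Neither was lower in both libraries of an arm than in both day 0 libraries, and guide 1854 was higher in both tumours. Guide 1855 had 237 and 129 scaled CPM in the day 14 cultures, 90.9 and 316 in the tumours, and 133 and 225 at day 0, with no order between the groups. Guides 1851 and 1853 were alike between the cultures and far apart between the tumours. Guide 1851 had 70.8 and 79.8 scaled CPM in the day 14 cultures, 344 and 1.83 in the tumours, and 66.3 and 74.5 at day 0, and its 12 reads in tumour 2 stand against 1241 in tumour 1. Guide 1853 had 128 and 95.3 scaled CPM in the day 14 cultures, 591 and 103 in the tumours, and 146 and 157 at day 0, lower in both cultures than at day 0. Summed over the 5 guides, edgeR gave -0.03 ± 0.30 at day 14 and 0.42 ± 0.30 in vivo (adjusted p = 0.960 and 0.332), and scaling to the non-targeting guides moved the in vivo value to -0.43 (adjusted p = 0.225). Without in vivo replicate 2 the in vivo sum was 0.65.

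AKT1, the kinase downstream of phosphoinositide signalling, had second-set values below their day 0 level in both arms, which limma and edgeR did not call in the main fits. The median log2 fold change of these 5 guides was -0.47 at day 14 (rank 204 of 348 genes from the lowest) and -1.01 in vivo (rank 126). The mean log2 CPM of the 5 was 7.59 and 7.65 in the day 14 cultures, 6.07 and 7.40 in the tumours, and 8.19 and 7.72 at day 0. All 4 later libraries lay below both day 0 libraries, and limma gave -0.34 ± 0.45 at day 14 and -1.22 ± 0.45 in vivo (adjusted p = 0.610 and 0.0579). On summed counts edgeR gave -0.36 ± 0.37 and -0.51 ± 0.37 (SE, adjusted p = 0.501 and 0.342). Scaled to the non-targeting guides, the in vivo sum was -1.36 and was called (edgeR, adjusted p = 0.0132), on a scale where 60.6% of the 348 genes were. The in vivo mean on that scale was -2.06 and was also called (limma, adjusted p = 0.00323), as were 82.5% of genes. Without in vivo replicate 2 the in vivo values were -1.88 for the mean and -1.21 for the sum. Without in vivo replicate 1 they were -0.56 and -0.04. With all 6 libraries, a pseudocount of 10 in place of 1 gave a call for the in vivo mean (-1.03, limma, adjusted p = 0.0386).

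The second-set guides of AKT1 had unlike values in the 2 tumours. Guide 2292 had 97.9 and 116 scaled CPM in the day 14 cultures, 4.16 and 89.5 in the tumours, and 212 and 94.1 at day 0, the tumour 1 value resting on 15 reads. Guide 2295 had 261 and 224 scaled CPM in the day 14 cultures, 52.1 and 319 in the tumours, and 344 and 402 at day 0. Both were rarest in tumour 1. Guide 2293 had 145 and 230.4 scaled CPM in the day 14 cultures, 184 and 35.6 in the tumours, and 276 and 245 at day 0 and was rarest in tumour 2. Guide 2294 had 231 and 206 scaled CPM in the day 14 cultures, 136 and 652 in the tumours, and 331 and 145 at day 0, so that it was below day 0 in tumour 1 and above both day 0 libraries in tumour 2. Guide 2291 was the only one with like values in the 2 tumours, with 299.6 and 255 scaled CPM in the day 14 cultures, 197 and 196 in the tumours, and 313 and 297 at day 0. In log2, 4 of the 5 second-set guides of AKT1 differed by more than 2 between the tumours, where 27.7% of all second-set guides and 13.1% of the non-targeting guides did, and 0 of the 5 did so between the cultures. In vivo fold changes were -1.71 ± 1.24 for guide 2292, -1.25 ± 0.78 for guide 2293 and -1.01 ± 0.76 for guide 2295 (SE, edgeR, adjusted p = 0.406, 0.342 and 0.427), and the share of non-targeting guides lower than each was 0.546%, 0.546% and 0.546%. Among all second-set guides such values were not extreme, with an in vivo median of -0.61 and a 5th percentile of -4.61.

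The first-set guides of AKT1 were led by 1 guide. Guide 42 had 460.2 and 698 scaled CPM in the day 14 cultures, 646 and 3055 in the tumours, and 426 and 285 at day 0, which is 20080 reads in tumour 2. It was above day 0 in all 4 later libraries and had the largest log2 fold change of the AKT1 guides, 2.38 ± 0.75 in vivo (edgeR, adjusted p = 0.111) beside 0.70 ± 0.72 at day 14 (adjusted p = 0.757). In tumour 2 it held 79.3% of the scaled CPM of the 5 guides, against 34.0% in tumour 1 and 30.6% in day 0 replicate 1. EdgeR called the sum of the 5 guides higher in vivo (1.19 ± 0.34, adjusted p = 0.0204), as it did for 44.8% of the genes with first-set guides. Without tumour 2 the value was 0.59, still called (adjusted p = 0.0187), and without day 0 replicate 1 or 2 it was 1.45 or 1.05 and not called (adjusted p = 0.0965 and 0.160). Scaled to the non-targeting guides it was 0.34 (adjusted p = 0.627).

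Leaving guide 42 out, a choice made after its values were seen, the other 4 first-set AKT1 guides summed to 1158 and 1077 scaled CPM in the cultures, 1254 and 796 in the tumours, and 967 and 843 at day 0. The tumours then lay on both sides of day 0. Guide 41 had 235 and 226 scaled CPM in the day 14 cultures, 223 and 144 in the tumours, and 181 and 101 at day 0. Guide 43 had 297 and 263 scaled CPM in the day 14 cultures, 167 and 301 in the tumours, and 282 and 289.7 at day 0. These 2 differ, in that guide 41 stood above day 0 in both cultures and guide 43 did not. Guide 44 had 198 and 291 scaled CPM in the day 14 cultures, 271 and 129.9 in the tumours, and 158 and 190.2 at day 0. Guide 45 had 428 and 298 scaled CPM in the day 14 cultures, 594 and 222 in the tumours, and 345 and 263 at day 0. None of the 4 stood on the same side of both day 0 values in the 2 tumours, and guide 44 stood above them in both cultures. The mean log2 CPM of the 5 guides differed from day 0 by 0.43 ± 0.24 at day 14 and 0.49 ± 0.24 in vivo (limma, adjusted p = 0.322 and 0.185), and on the non-targeting scale the values were -0.08 and -0.36.

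HIPK1, the nuclear kinase, was the one of the 3 whose second-set guides all lay below day 0 in culture. Guide 2709 had 21.2 and 62.3 scaled CPM in the day 14 cultures, 39.1 and 18.9 in the tumours, and 269 and 119.8 at day 0. It was lower in all 4 later libraries than at day 0, and its log2 fold changes of -2.22 ± 0.95 at day 14 and -2.75 ± 0.97 in vivo (edgeR, adjusted p = 0.584 and 0.135) were the lowest of the 30 guides and below those of all 183 non-targeting guides. Both lay above the 5th percentile of all second-set guides, which was -3.26 at day 14 and -4.61 in vivo. Guide 2710 had 69.7 and 79.6 scaled CPM in the day 14 cultures, 117 and 76.2 in the tumours, and 239 and 112 at day 0. Guide 2708 had 118 and 149.7 scaled CPM in the day 14 cultures, 92.9 and 122 in the tumours, and 239 and 209 at day 0. Of these, guide 2708 lay below day 0 in both tumours and guide 2710 lay between the day 0 values in tumour 1. Guide 2706 had 96.6 and 173 scaled CPM in the day 14 cultures, 81.8 and 225 in the tumours, and 204 and 184 at day 0, below day 0 in the cultures and in tumour 1 alone. Guide 2707 had 63.7 and 59.6 scaled CPM in the day 14 cultures, 226 and 29.1 in the tumours, and 200.2 and 136 at day 0, with tumour 1 above both day 0 libraries.

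All 5 second-set guides of HIPK1 were lower in both cultures than in both day 0 libraries. Of all second-set guides 52.3% did so, and of the 264 genes with 5 kept second-set guides 32 (12.1%) did so with all 5, as 19 did in the tumours. In the tumours 2 of the 5 HIPK1 guides were below both day 0 libraries, beside 46.6% of second-set guides. The corresponding counts were 2 of 5 in culture and 4 of 5 in the tumours for AKT1, and 1 of 5 and 0 of 5 for DDR1. Among non-targeting guides the share was 2.73% in culture and 3.83% in the tumours.

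The mean log2 CPM of these 5 guides was 6.03 and 6.58 in the day 14 cultures, 6.59 and 6.05 in the tumours, and 7.84 and 7.21 at day 0. The 4 later libraries did not overlap day 0, and limma called the difference in both arms (-1.22 ± 0.37 and -1.21 ± 0.37, adjusted p = 0.0495 and 0.0305). Scaled CPM summed over the 5 was 369.6 and 525 in the day 14 cultures, 556 and 471 in the tumours, and 1151 and 760.3 at day 0, and edgeR on the summed counts gave -1.10 ± 0.37 and -0.90 ± 0.37 without a call (adjusted p = 0.0786 and 0.105; 14.1% and 18.7% of 348 genes called lower). The day 14 sum was called by DESeq2 (adjusted p = 0.0373) and in a fit of the 2 groups alone (adjusted p = 0.00204). Of the 3607 guides tested singly, these settings called 125 and 293 lower at day 14, against 0 in the main fit. The share of second-set sums called in these settings is not given here, and counts of single guides do not stand in for it. With in vivo replicate 1 or 2 left out the day 14 sum was -1.10 in each case, and without in vivo replicate 1 the in vivo sum was -1.02. The limma call was lost without either day 0 library, with -0.87 and -1.53 at day 14 (adjusted p = 0.391 and 0.105) and -0.80 and -1.52 in vivo (adjusted p = 0.281 and 0.0573). It was also lost without day 14 replicate 1 or 2, with -0.90 and -1.46 at day 14 (adjusted p = 0.325 and 0.130) and -1.11 each in vivo (adjusted p = 0.0674 each), and with the median guide in place of the mean (adjusted p = 0.0794 at day 14 and 0.0675 in vivo). Scaled to the non-targeting guides the changes were -1.73 and -2.05 (adjusted p = 0.00639 and 0.00132), on a scale where 66.7% and 82.5% of genes were called lower, and the sums were -1.62 and -1.76 (edgeR, adjusted p = 0.0120 and 0.00569), where 65.2% and 60.6% were. By the guide median HIPK1 ranked 72 of 348 from the lowest at day 14 (-1.23) and 143 in vivo (-0.86), well above the second-set medians of PRPF19 and RPL13.

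The first-set guides of HIPK1 were called in neither arm in the main fits of edgeR and limma. By their median they ranked 299 of 299 genes from the lowest at day 14 (0.97), the highest of all, and 170 in vivo (0.62). Guide 537 had 484 and 341 scaled CPM in the day 14 cultures, 702 and 674 in the tumours, and 163 and 216 at day 0, above day 0 in all 4 later libraries, with 1.12 ± 0.42 at day 14 and 1.86 ± 0.43 in vivo (edgeR, adjusted p = 0.508 and 0.0646). Guide 540 had 274 and 196 scaled CPM in the day 14 cultures, 245 and 367 in the tumours, and 109.7 and 92.4 at day 0, again above day 0 throughout, with 1.22 ± 0.50 and 1.60 ± 0.51 (adjusted p = 0.554 and 0.111). Guide 538 was the exception, with 140.0 and 276 scaled CPM in the day 14 cultures, 45.7 and 241 in the tumours, and 348 and 326 at day 0, below day 0 in each later library, and 0.546% of the non-targeting guides were lower than it in vivo. Its in vivo log2 fold change of -1.23 lay above the 5th percentile of all first-set guides (-1.42). Guide 539 had 137 and 332 scaled CPM in the day 14 cultures, 81.8 and 285 in the tumours, and 60.1 and 179 at day 0. Guide 536 had 239 and 290.0 scaled CPM in the day 14 cultures, 219 and 451 in the tumours, and 230.1 and 243 at day 0. These 2 had no order between the groups, and the tumours of guide 539 lay on both sides of its day 0 mean. Summed over the first set, edgeR gave 0.46 ± 0.29 and 0.75 ± 0.29 (adjusted p = 0.374 and 0.0562), and on the non-targeting scale the values were -0.05 and -0.10. The in vivo sum was called higher by DESeq2 (0.84, adjusted p = 0.00266) and by edgeR with median-ratio factors (0.84, adjusted p = 0.0315). Of guides tested singly, DESeq2 called 10.9% higher in vivo. In an edgeR fit of the 2 groups alone the day 14 sum was called higher (0.46, adjusted p = 0.0462), where 29 of 3607 single guides were. The share of first-set sums called in these settings is not given here. Without in vivo replicate 1 the in vivo sum was 1.04.

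Taken over all 10 guides, the in vivo sum of DDR1 was the one called with all 6 libraries, and the order of DDR1 and AKT1 depended on the libraries used. The in vivo sum of DDR1 rose by 0.77 ± 0.21 (edgeR, adjusted p = 0.0372; 19.8% of the 348 genes called higher and 2.87% lower), beside 0.56 ± 0.33 for AKT1 and 0.16 ± 0.23 for HIPK1 (adjusted p = 0.226 and 0.607). AKT1, without in vivo replicate 1, stood above DDR1 (0.99 against 0.80), and without in vivo replicate 2 it was at -0.07 with DDR1 at 0.73. Without day 0 replicate 1, AKT1 was at 0.82 (adjusted p = 0.291). The call of DDR1 was lost in a fit of the 2 groups alone, without day 0 replicate 1 or 2 (0.68 and 0.96, adjusted p = 0.191 and 0.165) and without day 14 replicate 1 or 2 (0.87 and 0.87, adjusted p = 0.0738 and 0.0738). At day 14 the sums were 0.34 ± 0.21 (DDR1), 0.08 ± 0.33 (AKT1) and -0.11 ± 0.23 (HIPK1), none called, beside 0.862% of genes called lower and 0% higher. Limma called none of the means over 10 guides in either arm, where it called 14.7% of genes lower at day 14 and 29.6% in vivo, and likewise no first-set mean was called lower, beside 1.34% of genes in vivo. On the non-targeting scale the means of HIPK1 were called lower at day 14, -0.85 (adjusted p = 0.0199), and in vivo, -1.18 (adjusted p = 0.00253), and that of AKT1 in vivo, -1.21 (adjusted p = 0.00522), with 52.9% (day 14) and 83% (in vivo) of genes called lower. None of the sums over 10 guides was called on that scale, beside 15.2% and 33.6% of genes lower and 0% and 1.15% higher.

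**Figure D3:**
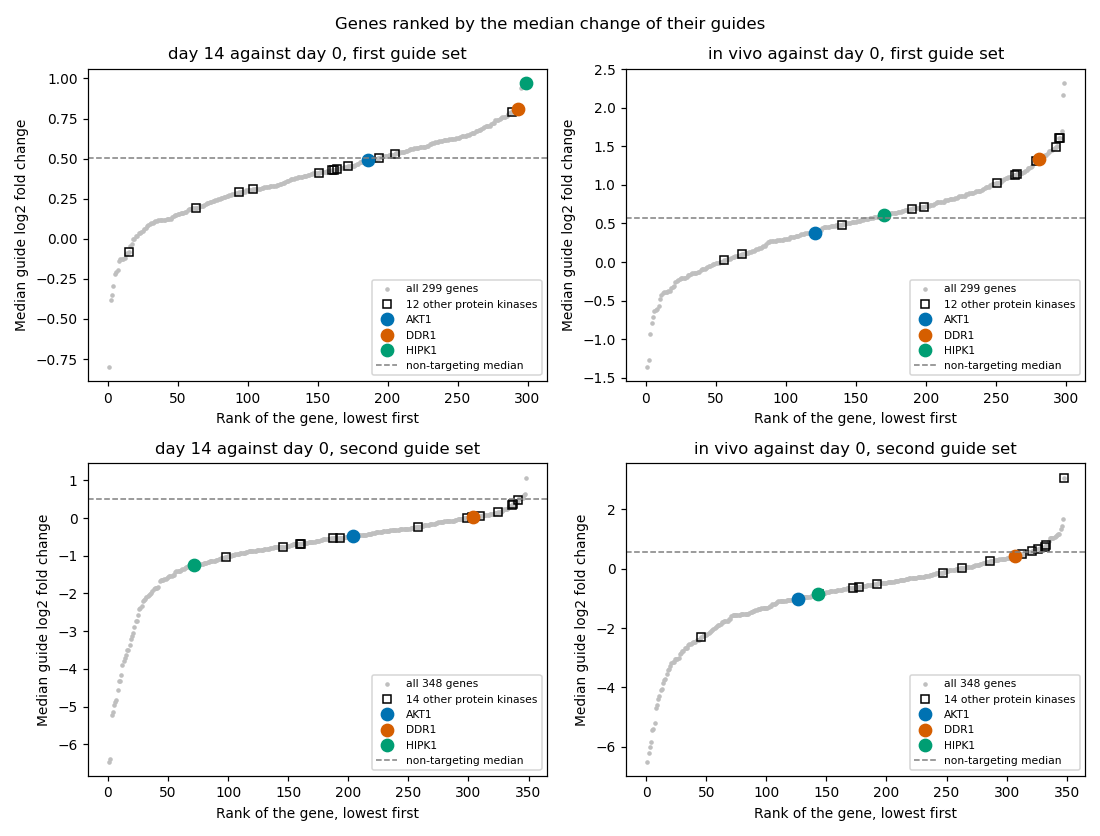
Genes ranked by the median log2 fold change of their first-set guides (299 genes) or second-set guides (348 genes), at day 14 and in vivo against day 0, with the 3 kinases as coloured points, other protein kinases as open squares and the non-targeting median as a dashed line. HIPK1 ranked 299 of 299 with its first-set guides and 72 of 348 with its second-set guides at day 14, and DDR1 lay toward the high end in all 4 panels.

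The difference between the 2 guide sets of a kinase was tested directly. Second-set minus first-set mean log2 CPM of HIPK1 was -1.81 and -1.56 in the day 14 cultures, -0.83 and -2.51 in the tumours, and 0.57 and -0.40 at day 0, and limma gave a change of -1.77 ± 0.62 at day 14 and -1.75 ± 0.62 in vivo (adjusted p = 0.0714 and 0.0467). For AKT1 the difference was -0.68 and -0.70 in the day 14 cultures, -2.30 and -0.97 in the tumours, and 0.16 and -0.01 at day 0, with -0.76 ± 0.50 and -1.71 ± 0.50 (adjusted p = 0.238 and 0.0245). For DDR1 it was 0.19 and 0.10 in the day 14 cultures, 0.69 and -1.37 in the tumours, and 1.47 and 0.89 at day 0, with -1.04 ± 0.65 and -1.53 ± 0.65 (adjusted p = 0.224 and 0.0893). The sets of AKT1 and HIPK1 therefore differed in vivo, as did those of 47.5% of the 299 genes with both sets, and at day 14 none of the 3 passed, beside 23.1%. Taking the median guide of each set, the in vivo difference was -0.61 for AKT1 and -1.68 for HIPK1 (adjusted p = 0.357 and 0.0506). Without day 0 replicate 1 the values were -1.62 and -1.27 and without day 0 replicate 2 they were -1.79 and -2.24, in no case called. HIPK1 was not called either without in vivo replicate 2 (-0.91) or without either day 14 library (adjusted p = 0.0635 and 0.0635). Without in vivo replicate 1 the in vivo difference of DDR1 was -2.57. With that tumour left out, the day 14 differences of DDR1 and HIPK1 were -1.04 and -1.77.

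Set against the day 14 cultures, the tumours gave no call for any of the kinases in the fits of all 6 libraries by edgeR (guides and sums) and limma (means). EdgeR called none of the 30 guides (0 lower, 0 higher), beside 0% and 0.0277% of all guides called. Without adjustment it gave 0 lower and 0 higher at a p under 0.05, beside 5.54% and 8.54% of all guides. DESeq2 also called 0 of the 30, beside 2.11% of all guides lower and 3.91% higher, and limma on the normalized counts called 0, beside 0.333% and 0.166%. With in vivo replicate 1 left out, edgeR called 2 guides lower and 3 higher, beside 9.48% and 11.9% of all guides, and without in vivo replicate 2 it called 3 lower and 3 higher, beside 8.73% and 10%. Log2 fold changes of the guides ran between -1.19 (guide 2292 of AKT1) and 1.68 (guide 42 of AKT1). For the second-set means limma gave -0.88 ± 0.45 for AKT1, 0.00 ± 0.47 for DDR1 and 0.01 ± 0.37 for HIPK1 (adjusted p = 0.313, 1.000 and 1.000), beside 1.44% of genes called lower and 0.575% higher. On first-set sums edgeR gave 0.76 ± 0.34, 0.40 ± 0.28 and 0.29 ± 0.29 in the same order (adjusted p = 0.185, 0.379 and 0.553), where 0.669% of genes were called higher. DESeq2 called the sum of DDR1 over all 10 guides higher, 0.48 (adjusted p = 0.0204), as it did for 46.8% of genes. EdgeR without in vivo replicate 1 called the first-set sum and the sum over all guides of each kinase higher, with AKT1 highest at 1.18 (adjusted p = 3.93e-07) for the first set, beside 38.5% (first set) and 49.7% (all guides) of genes. EdgeR without in vivo replicate 2 called the second-set sum of AKT1 lower, -0.85 (adjusted p = 0.00971), and that of DDR1 higher, 0.68 (adjusted p = 0.0291), beside 11.5% and 26.4% of genes, and limma called the second-set mean of AKT1 lower, -1.55 (adjusted p = 0.00702), beside 18.1%. With n = 2 tumours the values of the 6-library fits do not show that the arms act alike.

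The spread between replicates of an arm bears on every value in the tumours. Between the 2 tumours the 30 guides differed by a median of 1.05 in log2, and 9 of the 30 by more than 2. Non-targeting guides differed by a median of 0.90, with 24 of 183 above 2. Between the cultures the medians were 0.40 and 0.32, with 0 of the 30 and 0 of the 183 above 2, and between the day 0 libraries they were 0.33 and 0.39. Guide 1851 of DDR1 had the widest gap of the 30 between the tumours, 6.93 in log2, past the 4.41 of the widest non-targeting guide. Of the 9 wide gaps 4 belonged to second-set guides of AKT1.

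**Figure D4:**
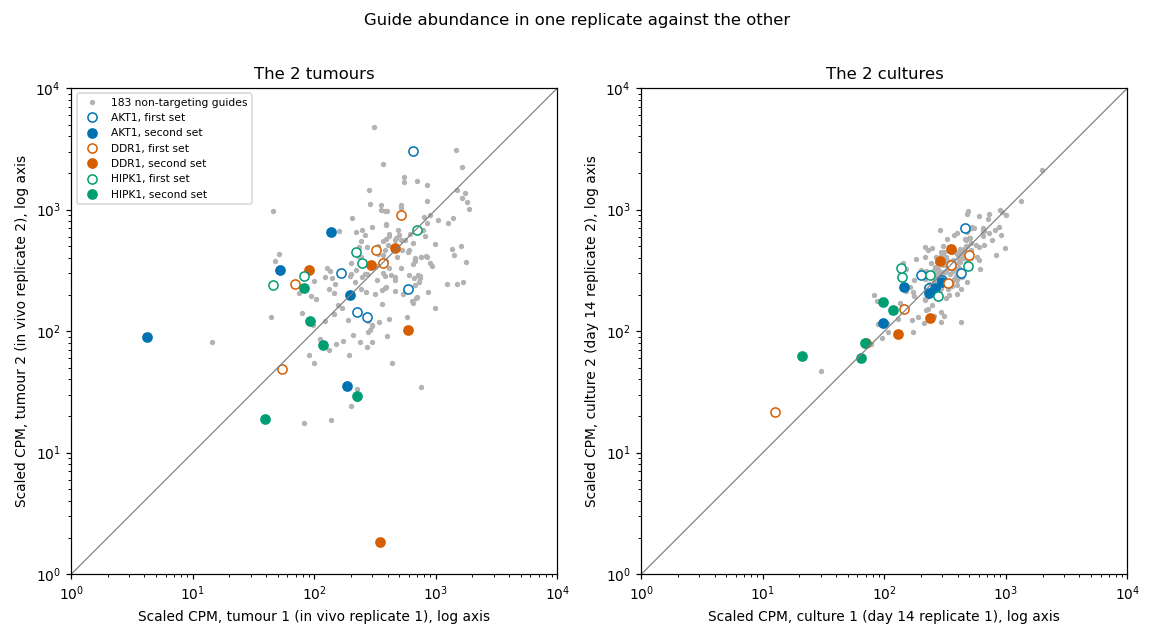
Scaled CPM of each guide in 1 tumour against the other (left) and in 1 day 14 culture against the other (right), on log axes, for the 30 guides of the 3 kinases (coloured) and the 183 non-targeting guides (grey), with the line of equal values. Points scatter more widely between the tumours, where guide 1851 of DDR1 had 344 and 1.83 scaled CPM, than between the cultures.

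Beside 14 other protein kinases of the library (137 kept guides), the second-set median of HIPK1 in culture was the lowest, and those of DDR1 and AKT1 lay within the range of the others in both arms. The second-set medians of the other kinases ran between -1.03 and 0.48 at day 14, with a median of -0.11, and between -2.31 and 3.06 in vivo, with a median of 0.13. Over all 348 genes the median was -0.61 and -0.62. BMPR2, a receptor of bone morphogenetic proteins, was lowest of them at day 14 (-1.03) and highest in vivo (3.06), and its 3 guides called higher in vivo were the only called guides of the list in either arm. MAPK15, an atypical MAP kinase, followed at day 14 (-0.76) and was lowest in vivo (-2.31), ahead of TXK, a tyrosine kinase of T cells (-0.85). The highest at day 14 were PTK2B (0.48), a kinase of the focal adhesion kinase family, and KIT (0.37), the stem cell factor receptor, and in vivo TAOK3 (0.80) came after BMPR2. On second-set means limma called 1 of the 14 lower at day 14, beside 22.7% of all genes. In vivo it called 2 lower and 1 higher, beside 43.1% and 1.72% of all genes.

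Among genes of the pathways around these kinases, most of those around the HIPK family had lower second-set medians than HIPK1. Of 8 genes of p53, SUMO and HIPK function (MDM4, USP7, PPM1D, TP53I13, PIAS1, SUMO2, CTNNB1 and DAXX), limma on second-set means called 7 lower at day 14 and 6 in vivo. At day 14 the lowest medians were those of USP7 (-6.39), the protease that removes ubiquitin from MDM2 and p53, and MDM4 (-4.83), an inhibitor of p53. In vivo they were those of MDM4 (-6.02) and PIAS1 (-5.40), a SUMO ligase, and CTNNB1, beta-catenin, was the highest of the 8 (0.45). The share of all genes called in this way was 22.7% at day 14 and 43.1% in vivo, and every gene of the library had been picked for its effect on synovial sarcoma lines in outside screens. Around AKT1, PIK3C2B, a class II PI3 kinase, had -0.50 at day 14 and -1.77 in vivo and was called lower in vivo (limma on the mean, -1.55, adjusted p = 0.00322), and the adaptor IRS4 had 0.03 and 0.55 and was called in neither arm. Around DDR1, 1 of 4 genes was called, fibronectin (FN1), lower in vivo (-1.41, adjusted p = 0.0153), and the collagen genes COL14A1 and COL25A1 and the kinase PTK2B were not.

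The genes most alike to each kinase were taken by the root mean square difference in the change of the median second-set guide over the 4 later libraries, each set against the mean of day 0. The median second-set guide of HIPK1 stood at -1.22 and -1.03 (cultures) and -1.23 and -1.09 (tumours), and MICAL3 and DCAKD came closest of the other 347 genes, at 0.0604 and 0.129 (median over genes 0.896). That of AKT1 stood at -0.51 and -0.26 (cultures) and -0.69 and -0.63 (tumours), with SIK1 (0.0920), also a kinase, and SSX3 (0.103) nearest. That of DDR1 stood at 0.01 and -0.04 (cultures) and 0.31 and 0.00 (tumours), with AGAP12P (0.0729) and ZNF597 (0.0833) nearest. These distances rest on 4 libraries that share their day 0 values and are a description only.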

How the data were processed

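Guide counts of 6 libraries (2 each of day 14, in vivo and day 0) were used. The authors deposited whole-number read counts, for which MAGeCK assigned the read pairs to the designed guides, and the submitters' processing notes also name hg38 (neither with a version). A second table deposited by the authors holds a normalized signal, equal to the count times 1 constant per library. Depth was 3394352 to 21854232 reads per library. The day 0 replicate 1 library was the deepest, but the precision of single libraries was not measured, and PCR reads are not independent molecules.

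Guides with a mean of at least 30 day 0 counts were kept (3607 of 3653). Counts were scaled by TMM and fitted in edgeR 4.0.16 (R 4.3.3, quasi-likelihood, 1 fit of all libraries, common dispersion 0.303), per guide and summed per gene. Per-gene means of log2(CPM + 1), and second-set minus first-set means, were tested in limma 3.58.1. P-values were adjusted by Benjamini-Hochberg over all guides or genes, at 0.05. The methods' robust rank aggregation was not run, since it draws random guide sets. Loci came from GENCODE release 44. Scripts were tested on simulated counts. Alternatives were other scalings (median-ratio, non-targeting), filters and pseudocounts, DESeq2 1.42.0, 2 groups fitted alone, a replicate block, and each library left out. The kinases and gene lists were chosen with earlier results of these data known, and 8 of the 14 other kinases and DAXX were added once the table's symbols had been read. Named genes were the 3 kinases, the 2 lowest and 2 highest second-set medians per arm among kinases and partners, the 2 most alike genes per kinase, PRPF19 and RPL13. Other list members were named after their values were seen, and 1 listed partner gene is not reported here.

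Deviations from the group means correlated over guides between same-numbered libraries by at most 0.0694 for any pair of groups, too little to pair them.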

Additional observations from a re-analysis of the deposited data

How the results depend on the processing

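Counts of calls over the 30 guides, over 9 sums and 9 means per comparison (3 kinases, by first set, second set and both) and over 3 set differences were recomputed under each alternative. In 86 of 141 cases the count was that of the main setting. In vivo, DESeq2 called 5 guides, against 0. On sums at day 14, scaling to the non-targeting guides called 1 (the second set of HIPK1), DESeq2 2 and a fit of the 2 groups alone 3, against 0, and on sums in vivo scaling to the non-targeting guides called 2 lower and 0 higher, against 0 lower and 3 higher. DESeq2 called 1 sum between the tumours and the cultures. On means, the median over guides called 0 at day 14 and 2 in vivo (0 lower, 2 higher), against 1 and 2, scaling to the non-targeting guides 2 and 4 (all lower), a pseudocount of 10 called 4 in vivo and a filter of 100 reads 1. Set differences had 1 call at day 14 with a pseudocount of 10 and 0 in vivo with the median over guides, against 0 and 2.

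With a replicate block, 3 means were called in vivo (the second set of AKT1 added, adjusted p = 0.0443), and 1 set difference at day 14 and 3 in vivo, against 0 and 2. The block called 2 sums in vivo, against 3 (the sum of DDR1 over all 10 guides was lost, as in a fit of the 2 groups alone), and left the counts of guides as they were.

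With 1 library left out, the lone library is assumed to vary like the other groups. Called guides numbered 0 to 9 in vivo and 0 to 6 between tumours and cultures, with the 5 to 9 calls only where a tumour was left out. Sums had 0 to 4 calls at day 14, 0 to 6 in vivo and 0 to 6 between tumours and cultures. Means had 0 to 2, 0 to 5 and 0 to 1, and set differences 0 to 2 at day 14 and 0 to 3 in vivo.

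Of 372 single values with a test, 285 kept direction and side of the threshold, 31 lost a call, 35 gained one and 21 changed sign, none of them called before or after. Sign changes by scaling to the non-targeting guides were AKT1 first set at day 14 (sum -0.089, mean -0.081) and in vivo (mean -0.36), HIPK1 first set at day 14 (sum -0.048) and in vivo (sum -0.096, mean -0.30) and DDR1 second set in vivo (sum -0.43). The others were DDR1 second set at day 14 (sum 0.0024 with median-ratio factors or DESeq2), in vivo (mean 0.15 with a pseudocount of 10 and 0.86 with the median guide), and AKT1 first set in vivo (mean -0.15 with the median guide). With a library left out, DDR1 second set ran over -0.227 to 0.250 (sum at day 14), -0.199 to 0.195 (mean at day 14), -0.761 to 0.711 (mean in vivo) and HIPK1 first set in vivo over -0.0269 to 1.12 (mean). The causes were not tested.

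The rarest values rest on few reads. They are the 1 read of guide 363 in day 0 replicate 1, the deepest library, and the 12 and 15 reads of guides 1851 and 2292 in 1 tumour each. Why these guides were rare there was not tested, and n = 2 limits every fold change.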
